A study of Mus musculus with 10 samples.

Results

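The genes described here are 10 that encode the receptor for bacterial lipopolysaccharide (LPS), related toll-like receptors of B cells and the adaptors that carry their signal. They were chosen by name (Tlr4, Ly96, Cd14, Cd180, Ly86, Myd88, Ticam1, Tirap, Tlr7 and Tlr9), and all 10 were found among the 46959 genes of the deposited count table. RNA was sequenced from 10 mouse libraries, 6 of spleen cells and 4 of femoral cells. The splenic libraries came from CD43- cells, a preparation enriched for resting B cells, cultured for 2 days with 5 µg/ml LPS. They comprised 2 cultures of wild-type (WT) mice with LPS, 2 of WT mice given 200 ng/ml SAHA beside the LPS, and 2 of KOKI mice. The protocol names BLACK-6 mice as controls and gives no other strain or age. SAHA (vorinostat) inhibits histone deacetylases. The labels do not spell out KOKI, and the series' title speaks of a mini 3'RR, the enhancer region at the 3' end of the immunoglobulin heavy chain (IgH) genes. For the KOKI cultures the title and design text give LPS, whereas the treatment label names LPS with SAHA, so they were compared with both WT groups. Each femoral library pooled RNA of 3 mice. Of these, 2 were controls deficient for RAG2 and gamma c, 1 came from KOKI mice with the same double deficiency and 1 from KOKI mice with only the RAG2 deficiency, so every femoral pool lacked RAG2, which antigen receptor rearrangement requires.

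LPS is handed by CD14 to a complex of TLR4 and MD-2 (encoded by Ly96), which sits on the cell surface. Signals then run through a pair of adaptor routes, one by TIRAP and MyD88 and the other by TRIF (encoded by Ticam1). B cells also carry CD180 with its partner MD-1 (encoded by Ly86), a relative of the TLR4 complex that lacks the signalling domain of toll-like receptors and that modulates B cell responses to LPS. TLR7 and TLR9 lie in endosomes, recognise single-stranded RNA and unmethylated CpG DNA, and signal through MyD88.

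The libraries held 18614742 to 29314068 counts. Levels are given as CPM, counts relative to the library's size, scaled with TMM factors that ran from 0.885 to 1.18. The femoral pools did not hold RNA of mature B cells at the level of the spleen: 10 mature B cell markers summed to 18.7 to 30.6 CPM of plain totals in the femur, with 2 or 3 of the 10 at 0, and to 2859 to 4531 CPM in the spleen. Macrophage and monocyte markers summed to 5246 to 6928 CPM in the femoral pools and to 29.7 to 61.3 CPM in the splenic cultures. Neutrophil markers summed to 13220 to 20570 CPM in the femoral pools and 0.82 to 4.16 CPM in the spleen. Erythroid markers summed to 7021 to 9126 and 1.3 to 9.1 CPM. The label of the femoral samples as B cells is therefore not borne out by mature B cell markers. Every femoral pool lacked RAG2, and no marker list of earlier B cell stages was examined. Within the spleen, KOKI LPS replicate 2 stood apart with 8499 counts of Xist, against at most 9 in the other splenic libraries, and 20 of the Y-linked Ddx3y, against at least 3183. Olfactory receptor genes with counts numbered 126 and 451 in the SAHA cultures and at most 47 in the other libraries. By Xist and Ddx3y the KOKI cultures differed in sex, and so came from different mice. For the cultures of each WT group nothing in the labels says that they came from separate animals. The p-values therefore speak only of the spread among these libraries, part of which may be technical. In bulk libraries, fewer cells of a type and less RNA per cell cannot be told apart.

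All 10 genes carry coordinates of mm10 in the deposited table. Tlr7 lies at chrX:167304929-167330558 on the minus strand, Cd180 at chr13:102693558-102739629 on the plus strand and Tlr9 at chr9:106222598-106226883 on the plus strand. Exons of Cd180 share 182 bases (4.04% of its exon bases) with Mast4 on the opposite strand, those of Myd88 share 290 (11.3%) with Acaa1a and those of Tirap share 39 (0.791%) with Srpr. The strand setting of the counting is not given in the sources used here, so reads there are uncertain. The other 7 genes share no exon bases with another gene. Promoter windows from RefSeq (GRCm38.p6) were used for Cd180, Ly86, Myd88, Ticam1, Tirap and Tlr9, 6 of the 10 genes, and the remaining genes were not examined for motifs.

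The windows of the 250 bases before the gene start are shown for Cd180 and Tlr9, since both genes differed between KOKI and SAHA-treated cultures below. Cd180 has 2 windows, and window 1 is shown, chr13:102693297-102693546 (plus strand). Window 2, chr13:102693308-102693557, ends just before the start of Cd180 in the count table. The window of Tlr9 is chr9:106222348-106222597 (plus strand). All are in GRCm38.p6, and capitals mark motif matches.
Cd180: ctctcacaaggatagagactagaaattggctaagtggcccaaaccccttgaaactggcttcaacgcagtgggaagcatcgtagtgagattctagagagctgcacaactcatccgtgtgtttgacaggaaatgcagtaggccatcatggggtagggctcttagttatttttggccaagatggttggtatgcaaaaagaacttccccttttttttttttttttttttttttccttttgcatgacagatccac
Tlr9: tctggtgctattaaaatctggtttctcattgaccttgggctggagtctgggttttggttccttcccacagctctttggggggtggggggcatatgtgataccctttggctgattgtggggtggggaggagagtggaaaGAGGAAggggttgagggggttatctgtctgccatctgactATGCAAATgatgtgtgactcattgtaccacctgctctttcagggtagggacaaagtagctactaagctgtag
Each of 5 motifs was searched on both strands. They were the PU.1 core GAGGAA, the octamer ATGCAAAT, the GC box GGGCGG, the interferon regulatory factor repeat and the kappa B motif. The repeat reads GAAA, any 2 bases, GAAA. The kappa B motif reads GGG, A or G, any base, A or T, C or T at each of 2 bases, CC. In the Tlr9 window the PU.1 core GAGGAA starts at position -112 and the octamer ATGCAAAT at -72 from the gene start; 23.3% and 1.6% of 32851 windows of the same length hold these motifs. Neither Cd180 window holds any of the 5, nor does that of Ly86. In the Myd88 window the interferon regulatory factor repeat GAAAGCGAAA starts at -40, a motif held by 2.98% of windows, and a GC box at -55. The RefSeq starts of Myd88, Ticam1 and Tirap, from which their windows were measured, lie inside the genes as the count table gives them. GC boxes, held by 32.7% of windows, also occur in the window of Ticam1 and in window 2 of Tirap, but not in its window 1. The Ticam1 window also holds the PU.1 core GAGGAA, starting at -30. Such matches describe letters in these windows and were not tested as binding sites.

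The order of the genes was compared per kilobase of exon. In WT LPS cultures the order of CPM per kilobase was led by Ly86 at 136 ± 13.1 (SD, n = 2), above Cd180 at 18.4 ± 1.63 and Tlr7 at 17.5 ± 0.861. Libraries of Cd180 and Tlr7 overlapped. Myd88, Ly96 and Tlr4 followed at 10.8, 8.30 and 6.35 CPM per kilobase; Ly96 overlapped both its neighbours, which did not overlap each other. Tirap (4.88), Ticam1 (4.40) and Tlr9 (4.36) came next, of which Tlr9 overlapped the other two and Tirap did not overlap Ticam1, and Cd14 came last at 0.117 ± 0.0647. In femoral controls Ly86 also led, at 79.8 ± 10.1 CPM per kilobase, but Cd14 had the next mean, at 11.5 ± 3.06. Cd14 libraries overlapped those of Cd180 (11.4), Myd88 (11.2) and Tlr7 (8.75), so its place among them was not resolved. Ly86 was the top gene in all 5 groups, with both femoral KOKI pools taken as 1 group, and Cd14 was last in all 3 splenic groups.

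**Figure D1:**
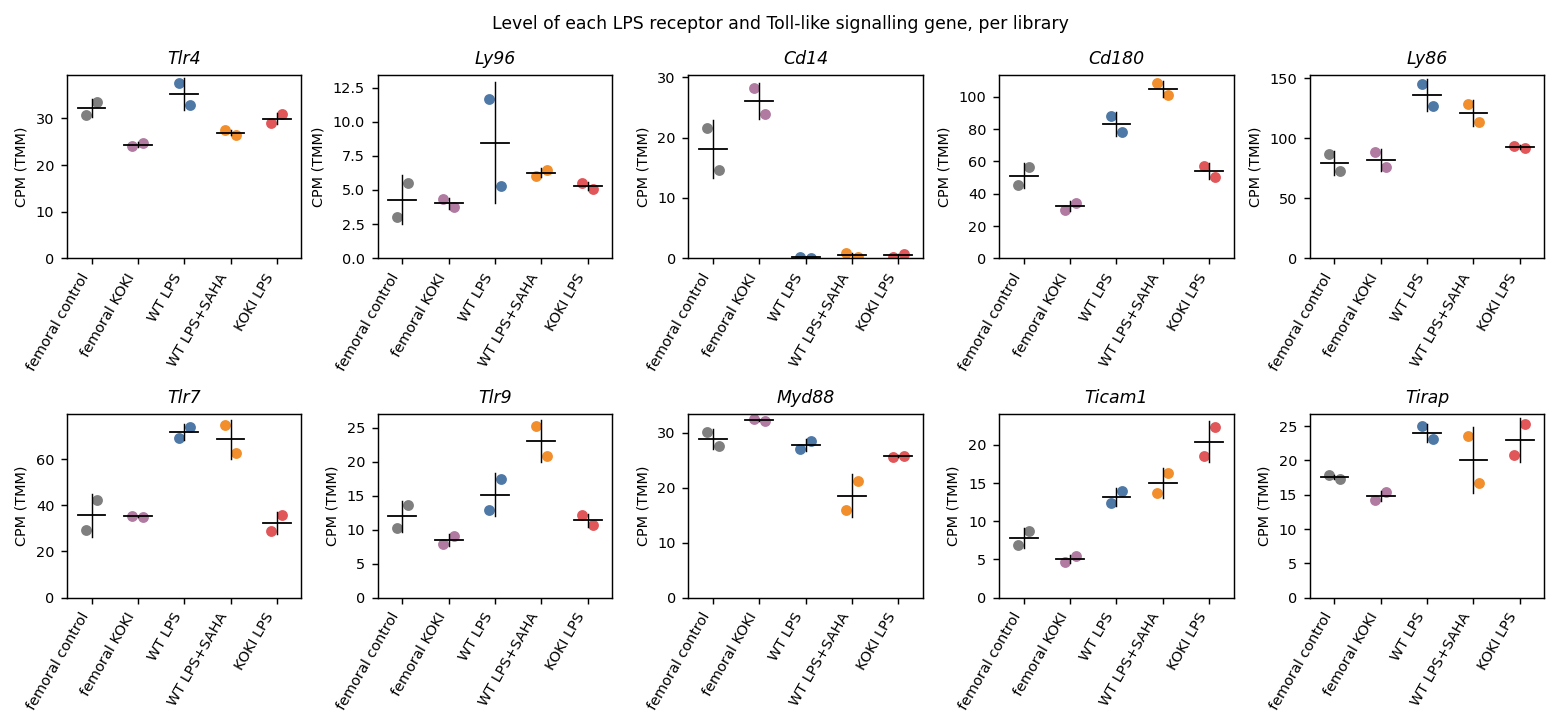
CPM (TMM-scaled, linear axis from 0) of each of the 10 genes; dots are libraries, bars the group means and lines the SD of 2 libraries, with both femoral KOKI pools shown as 1 group. Tlr7 sits between 28.8 and 35.6 CPM in the KOKI cultures and between 62.5 and 74.6 CPM in the 4 WT cultures.

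The question of the first comparison is how KOKI cultures differ from WT cultures with LPS. Tlr7 and Cd180 were lower in KOKI cultures, and the other 8 genes did not pass the test. Lower calls made up 1.83% of the 15342 genes tested and calls in either direction 4.08%, against 2 of the 10 genes here, both lower. Tlr7, the receptor for single-stranded RNA, stood at 69.1 and 74.1 CPM in WT LPS cultures and at 28.8 and 35.6 CPM in KOKI cultures. Both KOKI cultures lay below both WT cultures. The fall was 2.19-fold, a log2 fold change of -1.13 (SE 0.16, 95% interval -1.49 to -0.77, adjusted p = 0.00735 by edgeR's quasi-likelihood test with Benjamini-Hochberg adjustment). Tlr7 is X-linked, and KOKI replicate 2 is the library with Xist counts; without it the log2 fold change was -1.30 (edgeR adjusted p = 0.0196), so Tlr7 was lower without that library too. Without KOKI replicate 1 it was -0.98, and the edgeR adjusted p of 0.0529 missed the threshold of 0.05.

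Cd180 stood at 88.4 and 78.0 CPM in WT LPS cultures and at 57.4 and 50.5 CPM in KOKI cultures. The groups did not overlap, and the log2 fold change was -0.60 (SE 0.13, 95% interval -0.90 to -0.30, edgeR adjusted p = 0.0443). The call did not hold without any 1 of the 6 splenic libraries: over these 6 fits the log2 fold change ran from -0.69 to -0.52 and the edgeR adjusted p from 0.0569 to 0.29. Without the Xist-positive KOKI replicate 2 it was -0.52 (edgeR adjusted p = 0.29). Ly86, which encodes the partner that CD180 needs at the surface, stood at 145 and 127 CPM in WT LPS cultures and at 93.6 and 91.6 CPM in KOKI cultures. Its KOKI libraries also lay below both WT libraries, and the log2 fold change of -0.53 (SE 0.13, 95% interval -0.84 to -0.23) had an edgeR adjusted p of 0.0724. DESeq2 called Ly86 in this comparison at an adjusted p of 0.0137.

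Ticam1, the TRIF adaptor, had the opposite sign among the genes whose libraries did not overlap. It stood at 12.3 and 14.0 CPM in WT LPS cultures and at 18.5 and 22.3 CPM in KOKI cultures. Both KOKI libraries lay above both WT libraries, with a log2 fold change of 0.65 (SE 0.19, 95% interval 0.23 to 1.08, edgeR adjusted p = 0.11). Tlr4 itself stood at 37.7 and 32.9 CPM in WT LPS and at 29.1 and 30.9 CPM in KOKI cultures, a log2 fold change of -0.21 (edgeR adjusted p = 0.478). Tlr9 stood at 12.9 and 17.4 CPM in WT LPS and at 12.1 and 10.7 CPM in KOKI cultures, with a log2 fold change of -0.39 (edgeR adjusted p = 0.384). For Myd88 and Tirap the log2 fold changes were -0.09 and -0.04 and for Ly96 -0.65, with edgeR adjusted p of 0.862, 0.943 and 0.409. Cd14 had 6 and 3 counts in WT LPS and 6 and 12 in KOKI cultures, too few to place it. In all, libraries of 7 of the 10 genes did not overlap, against 47.2% of all genes tested. The median log2 fold change was -0.299 over the 10 genes and -0.0202 over all genes. Plasmablast markers, all 5 above 0, summed to 779 to 896 CPM in KOKI cultures and 238 to 240 CPM in WT LPS cultures. Mature B cell markers, all 10 above 0, summed to 2859 to 3024 and 2940 to 3136 CPM, macrophage and monocyte markers to 30.0 to 30.8 and 29.7 to 32.5 CPM. Within these last lists single markers went both ways. Blk stood at 79.8 and 94.1 CPM (TMM-scaled) in KOKI against 128 and 131 CPM, Cd79a at 323 and 327 against 314 and 298 CPM. Lyz2 stood at 3.47 and 5.03 against 11.9 and 10.8 CPM, Itgam at 16.3 and 17.4 against 3.36 and 1.90 CPM. The part of these markers in the differences was not tested.

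SAHA was asked about next, in WT cultures with LPS. None of the 10 genes passed the edgeR test, where 4.64% of 15342 genes did. By edgeR 4 had an unadjusted p under 0.05, against 25.3% of all genes, and DESeq2, which called 1704 genes, called none of the 10. An edgeR fit with the WT replicate number as a block called 2013 genes, among them 1 of the 10, Myd88. No label says that such a number marks a shared animal. Tlr9, the receptor for CpG DNA, stood at 12.9 and 17.4 CPM without SAHA and at 25.2 and 20.8 CPM with it. The SAHA libraries lay above the others, with a log2 fold change of 0.63 (SE 0.20, 95% interval 0.16 to 1.09, edgeR adjusted p = 0.105). Myd88, the adaptor shared by most toll-like receptors, stood at 27.0 and 28.5 CPM without SAHA and at 15.9 and 21.3 CPM with it. Both SAHA libraries lay below, with a log2 fold change of -0.55 (SE 0.17, 95% interval -0.94 to -0.15, edgeR adjusted p = 0.101).

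Tlr4 stood at 37.7 and 32.9 CPM without SAHA and at 27.4 and 26.5 CPM with it, and its groups did not overlap. The log2 fold change was -0.36 (SE 0.13, 95% interval -0.66 to -0.05, edgeR adjusted p = 0.146). Cd180 had the opposite sign, with 108 and 101 CPM in SAHA cultures against 88.4 and 78.0 CPM, a log2 fold change of 0.36 (SE 0.13, 95% interval 0.07 to 0.66, edgeR adjusted p = 0.129). For Tlr7 the log2 fold change was -0.03 (95% interval -0.39 to 0.32, edgeR adjusted p = 0.912), and the libraries at 74.6 and 62.5 CPM spanned those without SAHA. The other 5 genes, Ly86, Ticam1, Tirap, Ly96 and Cd14, had edgeR adjusted p of 0.461 to 0.559. Libraries of 4 of the 10 genes did not overlap, against 56.2% of all genes. Upper-quartile scaling moved the median log2 fold change of all genes from 0.0176 to 0.164, and under it the sign of Ly86 and Tlr7 turned, to 0.0071 and 0.11. The 712 genes called split into 146 higher and 566 lower, and under that scaling 371 split into 214 and 157. Macrophage and monocyte markers (0 to 2 of 10 at 0 counts) summed to 50.0 to 61.3 CPM in the SAHA cultures and, with 2 or 3 at 0, to 29.7 to 32.5 CPM in the WT LPS cultures, and plasmablast markers to 127 to 160 and 238 to 240 CPM. Mature B cell markers, all 10 above 0, summed to 3626 to 4531 CPM with SAHA and 2940 to 3136 CPM without. None of these 3 sums overlapped, and their part was not tested.

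**Figure D2:**
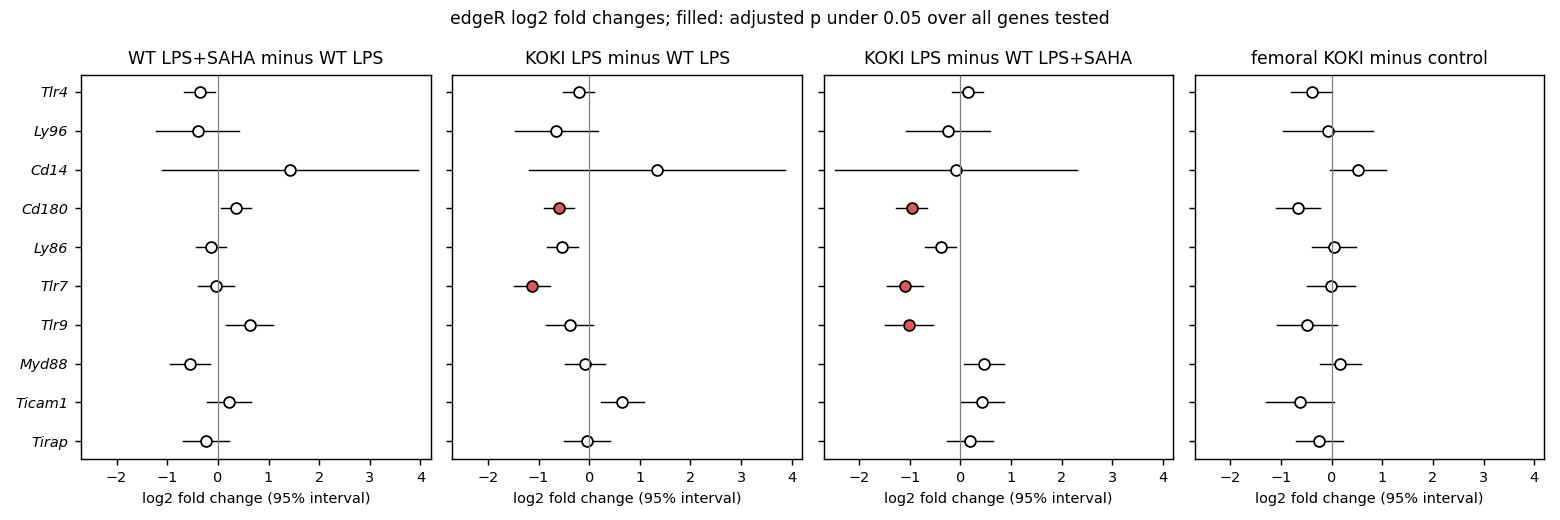
Log2 fold changes (x axis) of the 10 genes in 4 comparisons with 95% intervals; filled points had an edgeR adjusted p under 0.05. Tlr7 and Cd180 are filled and lower in KOKI against WT LPS, Tlr7, Cd180 and Tlr9 in KOKI against SAHA-treated cultures, and none is filled for SAHA or in the femur.

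Set against the SAHA-treated WT cultures, which the treatment label of the KOKI cultures would make their matched group, Cd180, Tlr7 and Tlr9 were lower in KOKI cultures. This comparison called 23.7% of 15342 genes in either direction and 9.64% as lower, and it called 3 of the 10 genes, all lower. It shares the KOKI libraries with the comparison above, so they are not independent. Tlr7 fell by 1.10 on the log2 scale (SE 0.16, edgeR adjusted p = 0.00319) and Cd180 by 0.96 (SE 0.13, edgeR adjusted p = 0.00251). For Tlr9 the libraries stood at 12.1 and 10.7 CPM in KOKI cultures and at 25.2 and 20.8 CPM in SAHA cultures. They did not overlap, and the log2 fold change was -1.02 (SE 0.21, edgeR adjusted p = 0.0114). Without SAHA replicate 1 or KOKI replicate 2 Tlr9 was no longer called, at log2 fold changes of -0.87 and -0.91 and edgeR adjusted p of 0.0531 and 0.0706. The other 7 genes did not pass by edgeR. Among them Ly86 was at -0.39 (edgeR adjusted p = 0.065); it was called with DESeq2 (adjusted p = 0.0331), with upper-quartile scaling (-0.55, edgeR adjusted p = 0.0235) and from only the 4 libraries compared (0.0485). Myd88 was at 0.46 (0.0898) and Ticam1 at 0.43 (0.127) on the log2 scale. The log2 fold change of Tlr4 was 0.15 (edgeR adjusted p = 0.463) and turned to -0.011 under upper-quartile scaling. That scaling also turned the split of all called genes, from 2160 higher and 1479 lower to 1338 and 2117. Libraries of 8 of the 10 genes did not overlap, against 65.6% of all genes. Mature B cell markers, all 10 above 0, summed to 2859 to 3024 CPM in KOKI and 3626 to 4531 CPM in SAHA cultures, plasmablast markers, all 5 above 0, to 779 to 896 and 127 to 160 CPM, and macrophage and monocyte markers to 30.0 to 30.8 (3 of 10 at 0) and 50.0 to 61.3 CPM (0 to 2 at 0). None of these 3 sums overlapped between the groups. Within the macrophage and monocyte list Itgam went the other way, at 16.3 and 17.4 CPM (TMM-scaled) in KOKI and 4.01 and 3.78 CPM in SAHA cultures. The part of these markers in the differences was not tested.

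In the femoral pools, where the KOKI genotype was compared in mice lacking RAG2, none of the 10 genes passed the edgeR test. Only 5 of 16624 genes did, 0.0301%. By edgeR 1 of the 10, Cd180, had an unadjusted p under 0.05, against 16.2% of all genes, and DESeq2, which called 677 genes, called none of the 10. Cd180 stood at 45.7 and 56.8 CPM in control pools, at 30.0 CPM in the KOKI pool lacking RAG2 and gamma c and at 34.5 CPM in the pool of RAG2-deficient KOKI mice. Both KOKI pools lay below both controls, with a log2 fold change of -0.66 (SE 0.19, 95% interval -1.09 to -0.23, edgeR adjusted p = 0.174). For Cd180 the log2 fold change was -0.79 without control replicate 1 and -0.51 without control replicate 2. In such fits the lone pool of an arm is assumed to vary like the other group.

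Tlr7 stood at 29.2 and 42.2 CPM in femoral controls and at 35.5 and 35.0 CPM in femoral KOKI pools, which lay between the controls. The log2 fold change was -0.01 (95% interval -0.49 to 0.46, edgeR adjusted p = 0.988). Cd14, the LPS co-receptor, stood at 21.5 and 14.7 CPM in controls and at 28.1 and 23.9 CPM in KOKI pools, in the order of pools given above for Cd180. The KOKI pools lay above, with a log2 fold change of 0.52 (95% interval -0.03 to 1.08, edgeR adjusted p = 0.332). Without control replicate 1 it was 0.85. Ticam1 stood at 6.89 and 8.72 CPM in controls and at 4.67 and 5.41 CPM in KOKI pools, without overlap, and its log2 fold change was -0.62 (edgeR adjusted p = 0.337). Tlr4 stood at 30.8 and 33.6 CPM in controls and at 24.0 and 24.7 CPM in KOKI pools, a log2 fold change of -0.40 (edgeR adjusted p = 0.315). Libraries of 7 of the 10 genes did not overlap, against 49.3% of all genes.

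Whether the KOKI difference itself differed between spleen and femur was tested as an interaction over all 10 libraries. None of the 10 genes passed by edgeR, where 0.846% of 20204 genes did; 3 had an unadjusted p under 0.05, against 13.1% of all genes. For Tlr7 the KOKI difference was lower in the spleen with an interaction of -1.14 on the log2 scale (SE 0.29, edgeR adjusted p = 0.108). DESeq2, which called 550 genes where edgeR called 171, called Tlr7 alone of the 10, at an adjusted p of 0.048. Over edgeR fits that each left out 1 library the Tlr7 interaction ran from -1.40 to -0.89. For Ticam1 the interaction was 1.26 (SE 0.34, edgeR adjusted p = 0.128), with a spleen difference above 0 and a femur difference below 0. Cd180 was lower in KOKI libraries of both tissues, by -0.60 and -0.66 on the log2 scale, although only the former passed.

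The splenic WT LPS cultures and the femoral control pools differ in tissue, culture, stimulation, genotype and cell type together, and these cannot be told apart. Against that background 42.4% of 20204 genes were called, 21.1% higher and 21.3% lower in the spleen. Of the 10 genes 5 were called, 4 higher and 1 lower. Cd14 showed a fall: it stood at 0.255 and 0.112 CPM (6 and 3 counts) in the spleen against 21.5 and 14.7 CPM in the femur, with a log2 fold change of -6.61 (SE 0.61, edgeR adjusted p = 4.79e-06). Without WT LPS replicate 1 it was -7.36, and without WT LPS replicate 2 it was -6.12. Macrophage and monocyte markers and neutrophil markers were lower in the spleen too, at the levels given above, and their part was not tested. Tlr7 was higher in the spleen, at 69.1 and 74.1 against 29.2 and 42.2 CPM, a log2 fold change of 1.00 (SE 0.21, edgeR adjusted p = 0.00213).

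Ly86 was also higher, with 145 and 127 CPM in WT LPS cultures against 86.6 and 72.4 CPM in femoral controls, a log2 fold change of 0.77 (SE 0.18, edgeR adjusted p = 0.00386). Cd180 rose from 45.7 and 56.8 CPM in the femur to 88.4 and 78.0 CPM in the spleen (log2 fold change 0.70, SE 0.17, edgeR adjusted p = 0.00681). Neither Ly86 nor Cd180 was called without WT LPS replicate 1, at log2 fold changes of 0.60 and 0.53 and edgeR adjusted p of 0.0656 and 0.0793. Ticam1 rose by 0.76 on the log2 scale (SE 0.24, edgeR adjusted p = 0.0241), and lost its call without femoral control replicate 1, WT LPS replicate 1 or 2, or SAHA replicate 1 or 2, at edgeR adjusted p of 0.0509 to 0.119. Of the genes that did not pass, Tlr4 was at 0.13 (edgeR adjusted p = 0.561) and Myd88 at -0.05 (0.84) on the log2 scale. Libraries of 6 of the 10 genes did not overlap, against 71.4% of all genes.

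Ratios of levels per kilobase within a library do not depend on its scaling. They were chosen after the levels had been seen and are given as a description. Cd180 over Tlr4 was 2.89 and 2.92 in WT LPS cultures, 4.87 and 4.70 in SAHA cultures, 2.43 and 2.02 in KOKI cultures, 1.83 and 2.08 in femoral controls and 1.54 and 1.72 in femoral KOKI pools. It was highest in the SAHA cultures, and none of the 3 splenic groups overlapped. Ticam1 over Myd88 was 0.394 and 0.422 in WT LPS, 0.740 and 0.661 in SAHA, 0.621 and 0.743 in KOKI, 0.197 and 0.272 in femoral control and 0.124 and 0.144 in femoral KOKI libraries. For this ratio SAHA and KOKI cultures overlapped and both lay above WT LPS. Tlr7 over Tlr9 was 4.57 and 3.63 in WT LPS cultures and 2.03 to 2.82 in the other splenic cultures. Ly86 over Cd180 was 7.43 and 7.35 in WT LPS, 5.36 and 5.06 in SAHA and 7.37 and 8.20 in KOKI cultures, so that KOKI overlapped WT LPS.

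**Figure D3:**
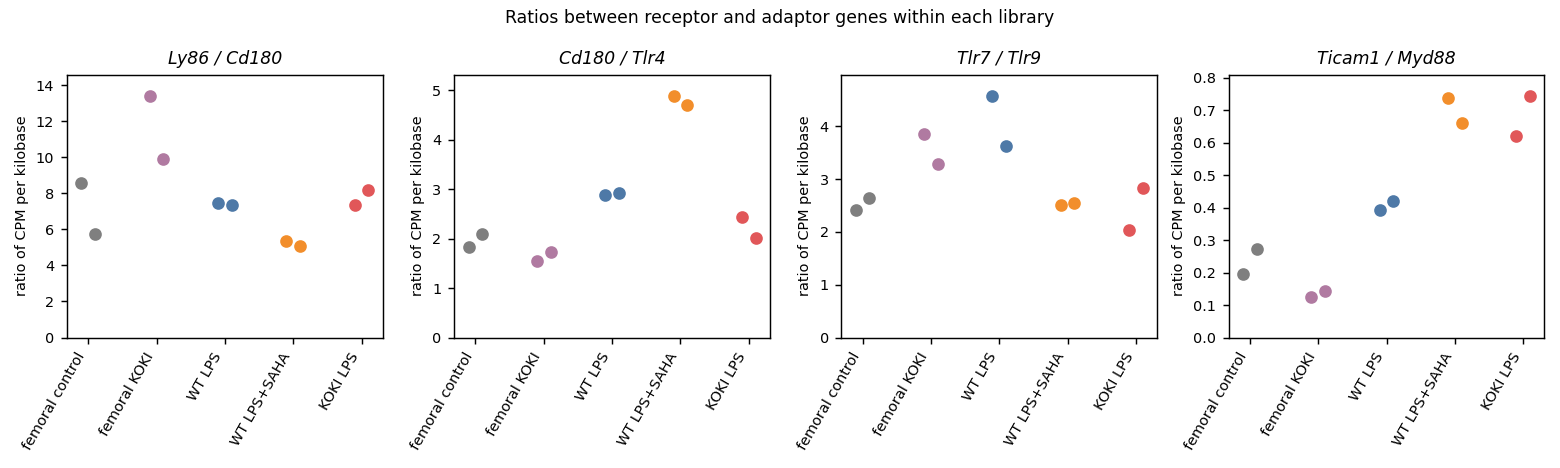
Ratios of CPM per kilobase within each library (linear axes from 0; dots are libraries) for Ly86 over Cd180, Cd180 over Tlr4, Tlr7 over Tlr9 and Ticam1 over Myd88. Cd180 over Tlr4 is highest in the SAHA cultures, at 4.87 and 4.70, and Ticam1 over Myd88 is higher in SAHA and KOKI cultures than in WT LPS cultures.

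Over the 6 splenic libraries, the genes most like Tlr4 by Pearson correlation of log2(CPM + 1) were Tmed5 (r = 0.997), Nob1 (0.994) and Fubp1 (0.991), and those most like Cd180 were Akap7 (0.999), Sat1 (0.998) and Anxa1 (0.997). These were the top 3 of 9929 genes with a mean of at least 5 CPM, over libraries that share 3 groups, and are a description.

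Other genes of the pathway were taken as 6 lists of 90 genes. In KOKI against WT LPS cultures edgeR called 10 of the 81 that could be tested, 4 higher and 6 lower, beside 4.08% of all genes, and DESeq2 called 15, beside 1088 of all genes. Of the 16 tested target genes of toll-like receptor signalling, 1 rose and 4 fell, and the median log2 fold change was -0.704 against -0.0202 over all genes. Ccl22, a chemokine, rose from 27.9 to 59.1 CPM (log2 fold change 1.11, edgeR adjusted p = 0.00453). Ccl5 fell from 5.98 to 1.06 CPM (-2.43, 0.0386) and Cxcl10, an interferon-induced chemokine, from 9.95 to 2.56 CPM (-1.95, 0.0134); Tnf and Cd86, named after their values were seen, were the other called falls, at -1.05 and -0.93. Of 16 downstream transcription factors 2 rose and 2 fell. Jun rose from 24.3 to 49.0 CPM (log2 fold change 1.04, edgeR adjusted p = 0.00541) and Fos from 1.63 to 5.94 CPM (1.89, 0.0389), while Irf7, a regulator of interferon genes, fell from 28.9 to 13.1 CPM (-1.13, 0.0467) and Nfkbid, also named after its value was seen, was the other fall, at -0.80. Of 8 trafficking genes edgeR called only Hsp90b1, the chaperone of toll-like receptors in the endoplasmic reticulum, a rise from 862 to 1784 CPM (1.08, edgeR adjusted p = 0.0293). DESeq2 called 3 genes of that list, all higher.

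No gene of the other toll-like receptors (6 tested), kinases and ubiquitin ligases (22) or negative regulators (13) was called in KOKI against WT LPS cultures by edgeR, where 2, 3 and 1 had an unadjusted p under 0.05; DESeq2 called 1 kinase or ligase gene. Jun and Ccl22 held their calls without each of the 6 splenic libraries in turn. Cxcl10 lost its call without WT LPS replicate 2 (edgeR adjusted p = 0.0601). Hsp90b1 lost it without WT LPS replicate 2 or either KOKI library, Irf7 without either WT LPS library or KOKI replicate 1, Ccl5 without either WT LPS library or KOKI replicate 2, and Fos without any 1 of these 4. Ccl5 was at -3.49 without KOKI replicate 1. The largest edgeR adjusted p of these 4 genes were 0.13, 0.194, 0.155 and 0.172.

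With SAHA in WT cultures edgeR called 5 of the 81 tested list genes, beside 4.64% of all genes, and DESeq2 10, beside 1704 of all genes. Hsp90b1 fell from 862 to 414 CPM (log2 fold change -1.03, edgeR adjusted p = 0.0389) and Lrrc59, which is needed for the trafficking of nucleic acid-sensing receptors, from 122 to 69.2 CPM (-0.79, 0.0378). Among targets Tnf rose from 19.7 to 42.5 CPM (log2 fold change 1.14, edgeR adjusted p = 0.026), and Il10, an anti-inflammatory cytokine, fell from 46.6 to 19.0 CPM (-1.27, 0.0185), as did Ccl22 from 27.9 to 15.9 CPM (-0.78, 0.0325). None of these 5 was called without WT LPS replicate 1, SAHA replicate 1 or SAHA replicate 2. Nor was any other gene tested, so these fits do not single out the 5. Lrrc59 and Ccl22 lost their calls without any 1 of the 6 splenic libraries, and Hsp90b1 also without either KOKI library. Over the 6 fits the log2 fold changes ran from -1.25 to -0.79 (Hsp90b1), -0.94 to -0.64 (Lrrc59) and 0.98 to 1.29 (Tnf). Those of Il10 ran from -1.36 to -1.19 and those of Ccl22 from -0.81 to -0.76. The other 4 lists had no edgeR call; 2 of 6 toll-like receptors, 6 of 22 kinases and ligases, 2 of 13 negative regulators and 2 of 16 transcription factors had an unadjusted p under 0.05, beside 25.3% of all genes, and DESeq2 called 1, 3, 0 and 0 of them.

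**Figure D4:**
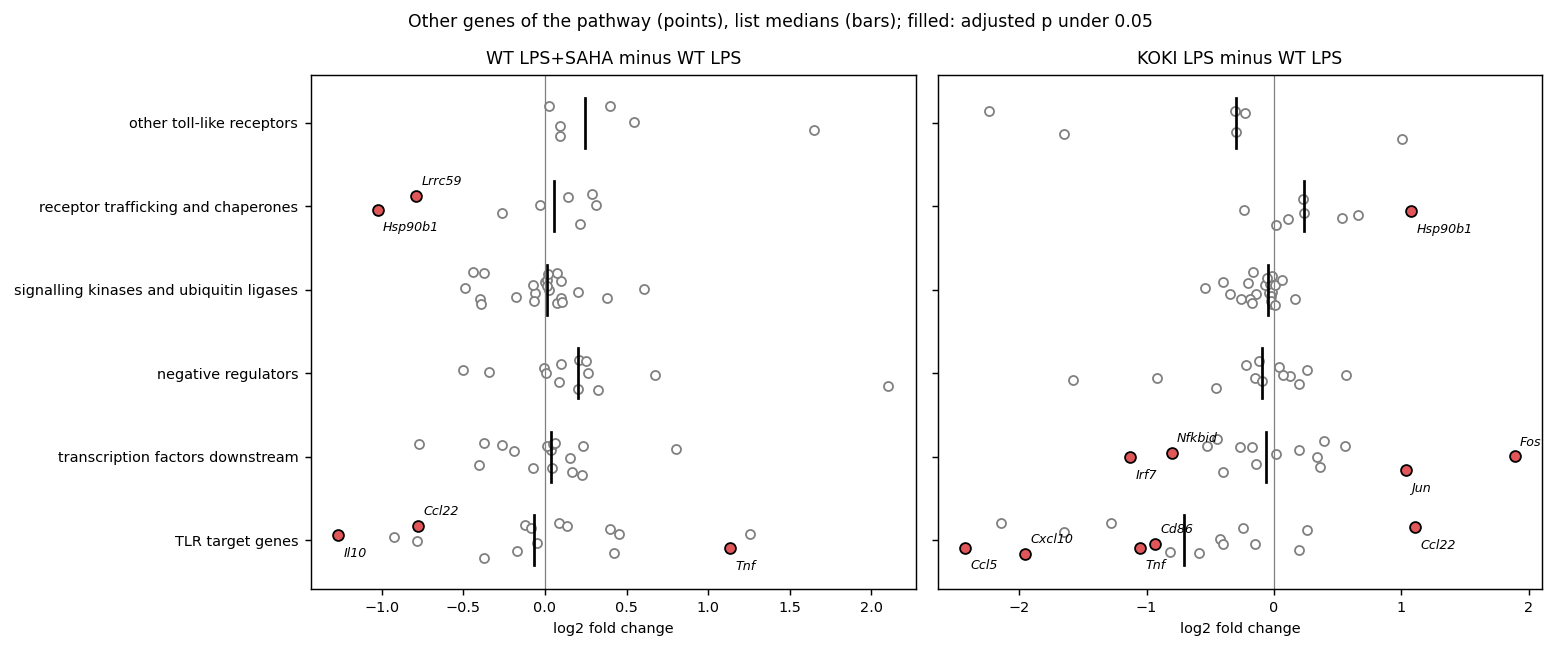
Log2 fold changes (x axis) of the genes of 6 pathway lists for SAHA against none in WT cultures (left) and KOKI against WT LPS (right); points are genes, bars list medians, and filled points had an edgeR adjusted p under 0.05. Hsp90b1, Tnf and Ccl22 are filled on both sides, at -1.03, 1.14 and -0.78 with SAHA and at 1.08, -1.05 and 1.11 in KOKI cultures; both sides share the WT LPS libraries.

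Against SAHA-treated cultures the KOKI cultures had 23 list genes of 81 called by edgeR, 8 higher and 15 lower, beside 23.7% of all genes, and DESeq2 called 26. Tlr1, which pairs with TLR2, stood at 107.5 CPM with SAHA and 60.1 CPM in KOKI cultures (log2 fold change -0.84, edgeR adjusted p = 0.00503), the 1 call among 6 other toll-like receptors. Hsp90b1 and Lrrc59 were higher by 2.10 and 1.45 on the log2 scale (edgeR adjusted p = 0.000876 and 0.00111), and Slc15a4, an endosomal transporter, was lower at -0.55 (0.0157). Of the 16 targets 2 were higher and 7 lower, with Lta at -3.40, Tnf at -2.19 and Cxcl10 at -1.90 (edgeR adjusted p = 0.00326, 0.000515 and 0.0054). Lta was at -4.12 without KOKI replicate 2. Of the 16 transcription factors 3 were higher and 3 lower, among them Atf3 at 1.33, Jun at 1.23 and Nfkbid at -0.97. The smaller differences of Chuk (0.46), Peli1 (-0.54), Ikbkb (-0.55) and Dok3 (-0.72), with those of Slc15a4, each lost their call without SAHA replicate 1 or KOKI replicate 1, at edgeR adjusted p of 0.0636 to 0.145. Without SAHA replicate 2 Peli1, Chuk and Ikbkb were not called (0.0534 to 0.144), nor, without KOKI replicate 2, were these and Slc15a4 (0.0653 to 0.138).

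In femoral KOKI against control pools none of the 84 tested list genes was called by edgeR; 14 had an unadjusted p under 0.05, beside 16.2% of all genes, and DESeq2 called 2, beside 677 of all genes. Between WT LPS spleen and femoral control 61 of 87 were called, 33 higher and 28 lower, beside the 42.4% of all genes. Of 9 other toll-like receptors 7 were lower in the spleen and Tlr1 was higher. Tlr13 had a log2 fold change of -6.67. Tlr8, with 0 and 5 counts in the WT LPS libraries and 1506 and 1563 in femoral controls, had one of -8.76, which was -7.95 without WT LPS replicate 1 and -13.09 without WT LPS replicate 2, a fitted value that is no bound, since the remaining library was at 0. Tlr5, at 0 counts in both WT LPS libraries, was at least 61.7-fold lower against a floor of 3 counts over the group. Lbp, which binds LPS in serum, was at 0 in WT LPS and at least 496-fold lower by the same floor. Il10 was at 0 in femoral controls and at least 1060-fold higher in the spleen. Irf4 and Relb were higher in the spleen, at log2 fold changes of 4.95 and 3.40, and Fos was lower, at -7.96; the cell types of both sources differed as described above.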

How the data were processed

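RNA was sequenced from 10 libraries made, per the labels' protocols, from total RNA with a kit that marks strand. The authors deposited raw counts per gene, unnormalised; per the submitters' processing notes, they used STAR 2.4.0a, featureCounts of Subread 1.4.6-p1 and mm10. The strand setting and the handling of multi-mapping reads are not stated in these sources. The 100 spike-in and phiX entries (at most 5.8e-05% of counts) were left out. Total counts were 18614742 to 29314068 per library; this depth limits Cd14 in the spleen most.

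Groups followed the labels. The femoral libraries fall 2, 1 and 1, where the design text has 2 pools per genotype; names of the SAHA libraries contain "D3", against 2 days in the protocol. Same-group libraries differed beyond counting noise (chi-square per degree of freedom 92.6 to 161 over genes with at least 20 counts), so none was treated as a copy.

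Tests used edgeR 4.0.16 in R 4.3.3 (TMM, filterByExpr with a minimum count of 10 and total of 15, quasi-likelihood F test, Benjamini-Hochberg over all genes, threshold 0.05), after a check on simulated counts. Splenic comparisons came from 1 fit of 6 libraries, the femoral one from 4, and the spleen against femur tests from all 10, where a lone library is assumed to vary like the others. Alternatives were DESeq2 1.42.0, upper-quartile scaling, no filter, other sample sets, a replicate block and leaving out each library. All 10 genes were described; list genes were named if called without overlap, at most 3 per list by size. The genes and lists were chosen with earlier results of these data known.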

Additional observations from a re-analysis of the deposited data

Results flagged for a closer look

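Among 87 tested genes of the pathway lists, edgeR's interaction test called a KOKI difference that differed between spleen and femur for 2 genes, beside 0.846% of all genes, and DESeq2 called 6 list genes, 3 in each direction. For Nfkbid, which encodes a nuclear regulator of NF-kappa B, the interaction was -1.58 on the log2 scale (edgeR adjusted p = 0.0437). Its level was 55.6 and 59.1 CPM in WT LPS, 30.7 and 34.0 CPM in KOKI cultures, 14.6 and 24.3 CPM in femoral controls and 31.4 and 34.3 CPM in femoral KOKI pools. KOKI was thus below WT in the spleen (log2 fold change -0.80, edgeR adjusted p = 0.0132) and had a log2 fold change of 0.77 in the femur (0.209). For Il12a, which encodes a subunit of interleukin 12, the interaction was -1.78 (edgeR adjusted p = 0.0268). Its level was 16.8 and 18.2 CPM in WT LPS, 12.3 and 10.6 CPM in KOKI cultures, 7.30 and 5.81 CPM in femoral controls and 13.6 and 15.9 CPM in femoral KOKI pools. Neither the splenic log2 fold change of -0.59 (edgeR adjusted p = 0.107) nor the femoral one of 1.17 (0.121) passed alone. Both interactions lost their call without the femoral KOKI pool lacking RAG2 alone, or without any 1 WT LPS or KOKI library, and that of Nfkbid also without femoral control replicate 1 or the other KOKI pool, at edgeR adjusted p of 0.0527 to 0.165. Of the 10 receptor and adaptor genes edgeR called none in this test, and DESeq2, which called 550 of all genes, called Tlr7 (adjusted p = 0.048), as the report gives.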

How the results depend on the processing

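With 2 libraries a group, the counts of calls moved with the tool and the libraries used. For SAHA, 712 genes were called, and 1704 with DESeq2, 371 with upper-quartile scaling, 1970 without the filter, 211 from all 10 libraries and 0 from only the 4 compared (3765 at an unadjusted p under 0.05). For KOKI against WT LPS, 626 became 1088 with DESeq2 and 1254 without the filter. For the femur, 5 became 677 with DESeq2 (452 higher, 225 lower), 662 without the filter, 0 from all 10 libraries and 0 with only the KOKI pool lacking both proteins. For the interaction, 171 became 550 with DESeq2 and 950 without the filter. Leaving out 1 library gave 0 to 290 genes for SAHA, 270 to 708 for KOKI, 1703 to 3463 for KOKI against SAHA, 13 to 3456 in the femur, 6094 to 8568 between tissues and 45 to 566 for the interaction.

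Of the 10 genes, the interaction called 1, Tlr7, with DESeq2 and without the filter. KOKI against WT LPS called 1 in place of 2 from only 4 libraries and from all 10, where Cd180 missed (edgeR adjusted p = 0.0576 and 0.114). Leaving out 1 library gave 0 to 0 called for SAHA, 0 to 1 for KOKI, 2 to 4 for KOKI against SAHA, 0 to 2 in the femur, 2 to 5 between tissues and 0 to 1 for the interaction.

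The WT cultures share replicate numbers, but no label says that a number marks a shared animal. Same-numbered libraries deviated together (r = 0.453 over 15342 genes, 2 pairs). A replicate block gave 2013 genes for SAHA, 1019 for KOKI and 4726 for KOKI against SAHA. It called 1 of the 10 genes for SAHA (Myd88, -0.56, edgeR adjusted p = 0.0363) and 5 for KOKI against SAHA (adding Ly86 at 0.033 and Myd88 at 0.036), and turned Cd14 there to 0.18.

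Signs turned only in values that passed no test. Upper-quartile scaling gave 0.0071 for Ly86 and 0.11 for Tlr7 (SAHA), -0.011 for Tlr4 (KOKI against SAHA) and 3.07e-05 for Tlr7 (femur). DESeq2 gave -0.025 for Tlr4 between tissues, and the femoral fit with only the KOKI pool lacking both proteins 0.012 for Ly96. Leaving out 1 library, log2 values ran for SAHA from -0.87 to 0.25 (Ly96) and -0.17 to 0.072 (Tlr7); for KOKI from -1.09 to 0.000230 (Ly96) and -0.20 to 0.10 (Tirap); for KOKI against SAHA from -0.95 to 1.28 (Cd14) and -0.027 to 0.46 (Tirap); in the femur from -0.43 to 0.40 (Ly96), -0.090 to 0.21 (Ly86) and -0.23 to 0.26 (Tlr7); between tissues from -0.24 to 0.014 (Myd88) and -0.042 to 0.23 (Tlr4); for the interaction from -0.085 to 0.20 (Cd180), -0.14 to 0.33 (Tlr9), -1.05 to 0.040 (Ly96) and -0.064 to 1.39 (Cd14). The cause of these moves was not tested.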
